A study of Mus musculus with 8 samples.

Results

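The nuclear-encoded subunits of the mitochondrial respiratory chain and ATP synthase were examined gene by gene in the vagal region of mouse embryos. Members were the protein-coding genes whose symbol starts with Nduf (assembly factors of the Ndufaf series left out), Uqcr, Cox4 to Cox8 or Atp5, and the genes Sdha, Sdhb, Sdhc and Sdhd. This took 86 of the 55421 genes in the deposited table: 38 by symbol in complex I, 4 in complex II, 8 in complex III, 18 in complex IV and 18 in complex V. The rule itself uses symbols and biotypes and no measured value, but the set was proposed with earlier results of these data known. A further 13 genes carried such a symbol but were not protein coding and were left out.

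RNA was sequenced from the vagal region, the tissue beside somites 1 to 7, at embryonic day 9.5. The labels give 4 samples as Rdh10(trex/trex) mutant (trex below) and 4 as wt. Rdh10 encodes an enzyme that oxidises retinol to retinaldehyde on the way to retinoic acid, and the labels do not say what the trex allele changes. Neither do they say whether a sample was 1 embryo or a pool, or which litters were used. The p-values therefore rest on the variation among these samples alone, part of which may be technical.

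The respiratory chain sits in the inner mitochondrial membrane. Complex I passes electrons from NADH to ubiquinone, complex II does so from succinate, complex III hands them on to cytochrome c, and complex IV gives them to oxygen; complex V uses the proton gradient so formed to make ATP. Most subunits are encoded in the nucleus and imported, a small core set is encoded in mitochondrial DNA, and several complex IV subunits come in paired isoforms that are known to differ between tissues or with oxygen supply.

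Values are TPM (RNA abundance corrected for gene length and for the total of the library), with 4 libraries in each group. Differences are trex minus wt on the log2(TPM + 1) scale from limma, with the standard error and with p-values adjusted by Benjamini-Hochberg over all 15717 genes with a mean of at least 1 TPM. Called genes are those under 0.05 after adjustment. Whole reads recovered from the TPM values came to 20928981 to 23648646 per library. Rdh10 RNA was at 106, 66.2, 62.7 and 69.0 TPM in trex replicates 1 to 4 and at 41.0, 36.3, 40.3 and 37.6 TPM in wt replicates 1 to 4, so no trex library lay within the wt range. Markers of other cell types differed too: all 9 neuron markers and 4 of 9 skeletal muscle markers were called lower in trex, as were 8 of 18 vagal region genes, and 2 of 9 endothelial and 1 of 6 pericyte markers were called higher. Primitive erythroid markers (11 tested) and liver bud and yolk sac markers (9 tested) gave no call. Of all tested genes, 4.94% were called higher and 3.77% lower. In such bulk tissue, fewer cells of a type and less RNA per cell cannot be told apart.

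Of the 86 members, 82 reached a mean of 1 TPM and were tested. The level varied widely among them, from 1.87 TPM for Atp5l to 1456 TPM for Atp5b, with a median of 160.5 TPM. The 4 that were not tested were the isoform genes Cox7b2, Cox8b and Cox8c and a second locus annotated as Atp5o, listed at 0 in every library. Of the 82 tested members, 1 (Ndufv3) was called higher in trex and none was called lower. Over all tested genes 4.94% were called higher and 3.77% lower, 8.71% in all. At an unadjusted p below 0.05 limma gave 5 members higher and 10 lower, against 17.4% and 11.6% of all genes. The same test on recovered read counts (limma voom) called the same single member higher and none lower, with 3 and 21 at an unadjusted p below 0.05. That fit called 642 of 15706 genes higher and 820 lower. Its median was -0.11 over members and -0.01 over all genes. The share of all genes at an unadjusted p below 0.05 was not counted for it, so 3 and 21 have no background here. The 95% interval of the difference lay within 0.5 of 0 for 70 of the 82 members (85.4%), against 56.6% of all tested genes.

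The direction of the small differences was uneven. The log2 difference was below 0 for 62 of the 82 members (75.6%), against 43.3% of all tested genes. Its median was -0.06 over members and 0.04 over all tested genes. By complex the median was -0.05 in complex I, -0.06 in complex II, -0.08 in complex III, 0.00 in complex IV and -0.08 in complex V. All 4 complex II genes and all 8 complex III genes were below 0, as were 30 of 38 in complex I, 12 of 17 in complex V and 8 of 15 in complex IV, which became 11 of 15 under median-of-ratios rescaling or quantile normalization.

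**Figure D1:**
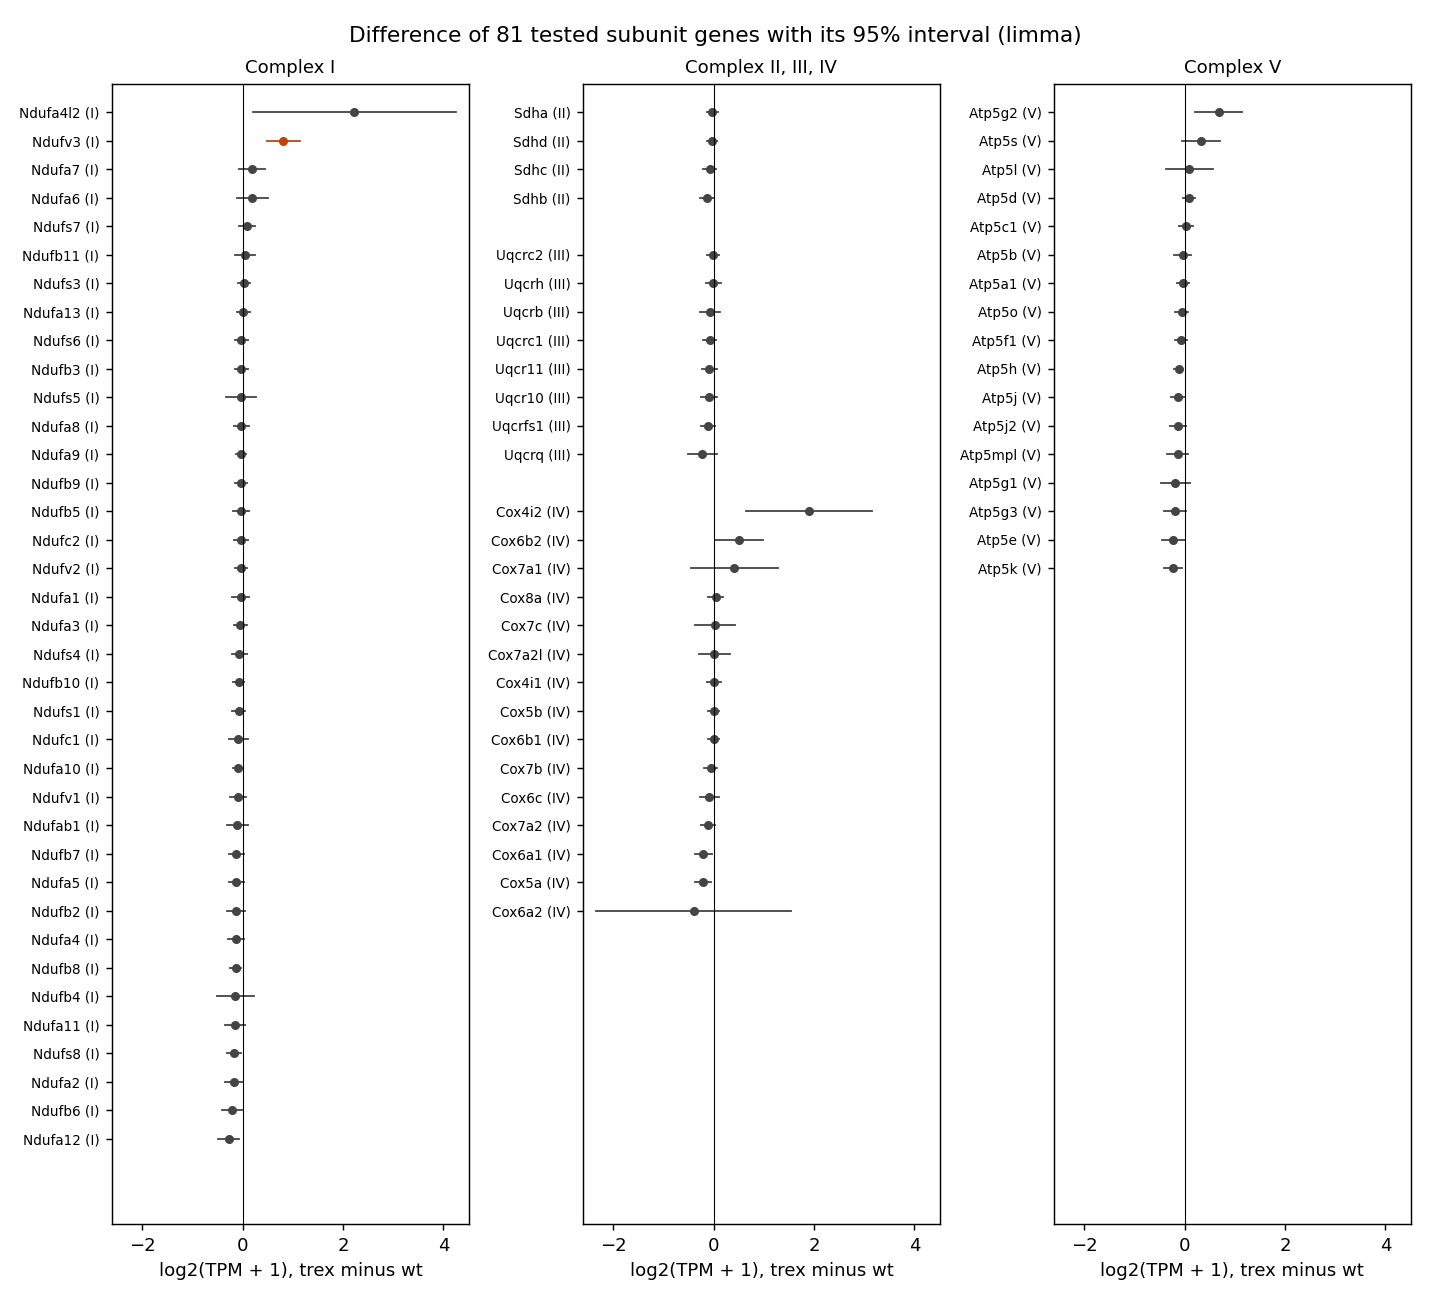
Log2 difference (trex minus wt, log2(TPM + 1) scale) of 81 of the 82 tested subunit genes, ordered within each complex; points are estimates, lines are 95% intervals from limma with 4 libraries a group, and orange marks the called gene. Most intervals are short and lie close to 0, Ndufv3 is the called gene at 0.80, and the longest intervals belong to Ndufa4l2, Cox6a2 and Cox4i2.

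In the deposited TPM, the small negative differences were concentrated in 2 of the 4 trex libraries. Set against the wt mean of each gene, the median member was at -0.09 in trex replicate 1 and -0.12 in trex replicate 2, but at -0.01 in trex replicate 3 and 0.00 in trex replicate 4. The wt libraries ranged from -0.05 to 0.02. The median over all tested genes was 0.09, 0.01, 0.03 and 0.02 in trex replicates 1 to 4, so it did not share this pattern. Trex replicate 2 held the lowest of the 8 values for 35 members (42.7%, against 12.2% of all tested genes) and trex replicate 1 for 29 (35.4%, against 23.6%). No member had its lowest value in trex replicate 3 or 4. Trex replicate 1 also held the highest of the 8 values for 18 members (22.0%, against 38.2% of all tested genes). With trex replicate 2 left out, 51 of 82 members were below 0 and the median was -0.03, against 0.05 over all tested genes. In complex II 3 of 4 and in complex III 5 of 8 were then below 0. Without trex replicate 1, 61 of 82 were below 0 and the median was -0.04, against 0.02 over all tested genes. In TPM without mitochondrial, globin and sex chromosome genes, 67 of 79 members were below 0. The median there was -0.11, against 0.00 over all tested genes. Of TPM outside the mitochondrial genome, members made up 2.20% and 2.21% in trex replicates 3 and 4, also below the wt range of 2.23% to 2.32%.

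**Figure D2:**
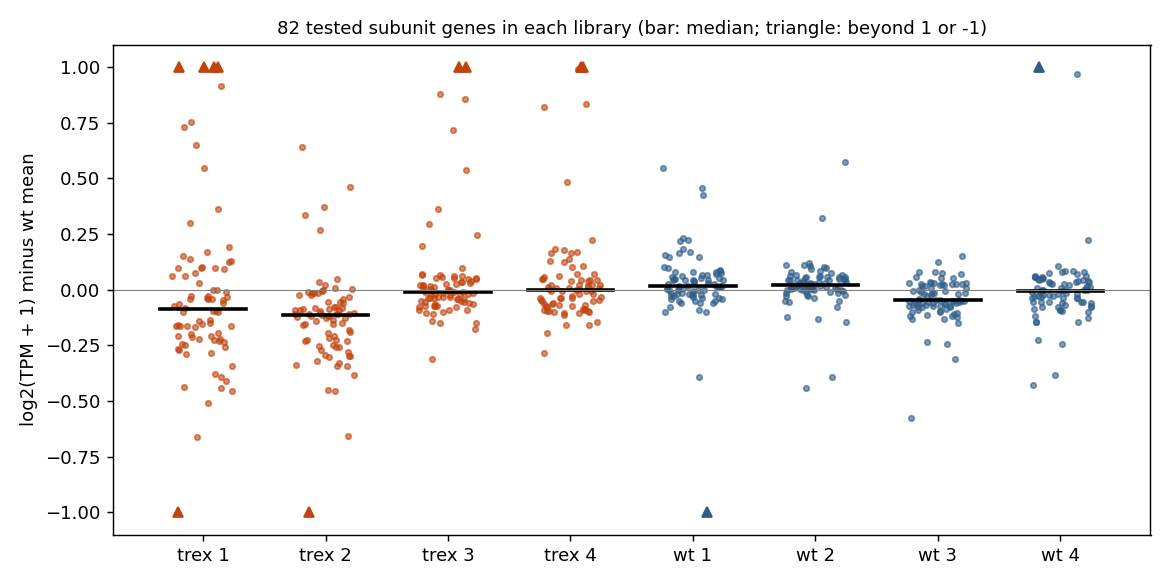
Log2(TPM + 1) of each of the 82 tested members minus the wt mean of that gene, in each library; dots are genes, black bars are medians and triangles are genes beyond the axis range of 1 or -1. The medians of trex replicates 1 and 2 lie at -0.09 and -0.12, and those of the other 6 libraries between -0.05 and 0.02.

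Complex I is the largest of the complexes and has an arm that reaches into the matrix. The outer part of that arm oxidises NADH and holds Ndufv1, which binds the flavin, Ndufv2 and Ndufs1, which carry iron-sulfur clusters, and the accessory subunits Ndufv3, Ndufs4, Ndufs6, Ndufa2 and Ndufa12. Ndufv3 was the called member. Its RNA was at 111, 64.7, 82.5 and 99.98 TPM in trex replicates 1 to 4 and at 49.0, 51.8, 47.8 and 50.7 TPM in wt replicates 1 to 4. Every trex library lay above every wt library, the wt libraries were tightly grouped, and the trex libraries spread over a range far wider than theirs. The mean rose from 49.8 ± 1.79 to 89.5 ± 20.2 TPM (SD, n = 4 a group), 1.796-fold, with a log2 difference of 0.80 (SE 0.15, limma adjusted p = 0.0172). An exact permutation test of the gene alone gave a two-sided p of 0.0286, the smallest that 4 against 4 allows. Any gene whose groups do not overlap gets this p, and 21.8% of all tested genes did not overlap. It therefore only restates the lack of overlap. The call was lost in 5 of 20 alternatives, namely with sex as a covariate (adjusted p = 0.126) and without trex replicate 4 (0.0555), wt replicate 1 (0.0509), wt replicate 2 (0.0606) or wt replicate 3 (0.0566), while the log2 difference stayed between 0.69 and 0.95.

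The partners of Ndufv3 in the flavin-bearing unit were not called. Ndufv1 was at 142, 158, 176 and 172 TPM in trex and at 168, 171, 179 and 173 TPM in wt, with a log2 difference of -0.10 (95% interval -0.26 to 0.06). Ndufv2 was at 256, 250.1, 248 and 260 TPM in trex and at 275, 269, 238 and 263 TPM in wt, with a log2 difference of -0.04 (95% interval -0.16 to 0.08). The ratio of Ndufv3 to the mean of Ndufv1 and Ndufv2 was 0.556, 0.317, 0.390 and 0.463 in trex and 0.221 to 0.235 in wt. The 2 groups of ratios did not overlap.

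Ndufv3 (ENSMUSG00000024038) lies at chr17:31520115-31531331 on the plus strand of GRCm38 (mm10). GENCODE M21 gives it 5 transcripts. A coding form of 4 exons (1582 bases) and one of 3 exons (493 bases) share the second and last exons. The longer form has a further 1092-base exon at chr17:31527310-31528401, and the first exons (144 and 147 bases) end at the same base and start 3 bases apart. Long and short Ndufv3 proteins are known from mammals and differ in the part which such an exon encodes. The deposited values are per gene, so a change in transcript mix and a change in transcript number cannot be told apart here. Only 0.640% of the 50-base words in its transcripts occur in transcripts of other genes, and no other annotated gene overlaps its exons.

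The start of Ndufv3 faces that of Wdr4, a tRNA methyltransferase subunit gene at chr17:31494322-31519980 on the opposite strand. The stretch between the 2 outermost annotated starts is shown because it is the sequence directly upstream of the called gene. It is 134 bases long, at chr17:31519981-31520114 of GRCm38.p6, plus strand, from the RefSeq promoter table, and capitals mark GCGTG on either strand, a core letter sequence of hypoxia response elements.

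Ndufv3 upstream: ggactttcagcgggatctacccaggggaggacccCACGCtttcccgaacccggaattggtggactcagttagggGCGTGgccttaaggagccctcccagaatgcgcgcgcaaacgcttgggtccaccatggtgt

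The stretch holds 2 such matches, 1 on each strand. ACGTG, the other such core sequence, had 0 matches in the 250 bases before the start. So did the NRF1 and ETS-type motifs described further on. GCGTG occurs on either strand in 28.2% of the 32851 promoters of the table when the 250 bases before the start are read, so a match is a description and not a bound site. Wdr4 itself was at 42.9, 47.3, 43.6 and 43.7 TPM in trex and at 55.3, 48.5, 53.1 and 48.3 TPM in wt, with every trex library below every wt library.

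The remaining subunits of the NADH-oxidising outer arm had differences below 0. Ndufa12, whose place is held by the assembly factor Ndufaf2 while the complex is being built, was at 42.6, 60.03, 49.0 and 49.9 TPM in trex and at 60.2, 61.0, 62.2 and 60.9 TPM in wt. Trex replicate 2 lay just under the wt range and the other 3 well below it. The log2 difference was -0.28 (SE 0.09, adjusted p = 0.0871). Without trex replicate 2 it was -0.37 with an adjusted p of 0.00998, which passes the threshold. In that fit 7.72% of all genes were called lower. Ndufa12 was called in only 1 of the 20 alternatives, and the adjusted p ran up to 0.309. Of the 50-base words of Ndufa12, 17.7% also occur in transcripts of a predicted gene, Gm15920, so its reads may have been split. Ndufs1, with the largest number of iron-sulfur clusters in the complex, was at 79.9 to 93.2 TPM in trex and 90.1 to 98.3 TPM in wt (log2 difference -0.08, 95% interval -0.21 to 0.05).

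The inner part of the arm, which reduces ubiquinone, gave no call among its 8 genes, and 4 of them were below 0. Ndufs8, an iron-sulfur subunit, had the lowest difference of this group at -0.17 (adjusted p = 0.119). Ndufa6 and Ndufa7, accessory subunits here, had the highest, 0.19 each, and both were highest in trex replicate 1, with Ndufa6 at 208 TPM there and 123 to 145 TPM in the other 7 libraries.

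The membrane arm, which pumps protons, was represented by 20 accessory genes. None was called, 18 were below 0, and 19 had an interval within 0.5 of 0. The lowest difference belonged to Ndufb6 at -0.21 (adjusted p = 0.164), of whose exonic bases 39.0% are overlapped by Smim27 on the opposite strand. Ndufa10 was at 108, 116.1, 116 and 113 TPM in trex and 125, 116.2, 123 and 119 TPM in wt. Its groups did not overlap, although trex replicate 2 and wt replicate 2 were nearly equal, and the log2 difference was -0.09 (adjusted p = 0.198).

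Ndufa4 and its paralogue Ndufa4l2 carry complex I symbols, but the Ndufa4 protein is a subunit of complex IV. Ndufa4l2 is known as a gene induced by low oxygen. It was at 191, 4.76, 16.4 and 35.8 TPM in trex and at 5.55, 6.76, 5.32 and 3.61 TPM in wt. Trex replicate 1 was far above all others, trex replicates 3 and 4 were above the wt range, and trex replicate 2 lay inside it. The log2 difference was 2.22 (SE 0.89, adjusted p = 0.141), with an exact permutation p of 0.114. Without trex replicate 2 it was 3.00 with an adjusted p of 0.0276, when 10.9% of all genes were called higher. Without trex replicate 1 it was 1.31 (adjusted p = 0.163). Ndufa4l2 was called in only 1 of the 20 alternatives, and the adjusted p ran up to 0.335.

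Ndufa4 was at 448, 443, 527 and 528 TPM in trex and 524, 562, 512 and 525 TPM in wt, a log2 difference of -0.13 (95% interval -0.29 to 0.03). Ndufa4l2 made up 29.9%, 1.06%, 3.01% and 6.35% of the summed TPM of the pair in trex replicates 1 to 4, and 0.684% to 1.19% in wt. The 2 genes are 71.5% identical over 239 aligned coding bases and share no 50-base word. Their most similar 60-base coding windows, bases 120 to 179 of Ndufa4 and 135 to 194 of Ndufa4l2 (GENCODE M21, chromosomes 6 and 10), are shown with the 53 identical bases in capitals, because reads that fit both genes would be most likely to come from there.

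Ndufa4: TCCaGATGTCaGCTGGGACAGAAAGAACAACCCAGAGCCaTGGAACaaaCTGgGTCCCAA

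Ndufa4l2: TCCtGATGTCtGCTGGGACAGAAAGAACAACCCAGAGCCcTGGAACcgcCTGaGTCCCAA

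The windows differ at 7 of 60 positions. Whether reads of one gene were counted for the other was not tested. Ndufa4l2 (chr10:127514967-127517154, plus strand) also overlaps exons of Shmt2, a mitochondrial serine enzyme gene on the opposite strand, by 32 bases, 2.92% of its exonic length. Shmt2 was at 410.2, 209.7, 249 and 303 TPM in trex and 148 to 172 TPM in wt. The libraries were stranded per the labels, but the sources used here do not state whether reads were counted by strand.

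Complex II has no mitochondrially encoded subunit and doubles as the succinate dehydrogenase of the citric acid cycle. Its catalytic head is made of Sdha, which binds the flavin, and Sdhb, which carries the iron-sulfur clusters. Sdha was at 275, 253, 276 and 277 TPM in trex and at 282, 276, 261 and 282 TPM in wt, a log2 difference of -0.03 (95% interval -0.14 to 0.08). Sdhb was at 189, 213, 226 and 217 TPM in trex and 233, 231, 224 and 236 TPM in wt, with trex replicate 3 alone reaching the wt range. Its log2 difference of -0.13 was the lowest of the 4 (adjusted p = 0.169). The membrane anchors Sdhc and Sdhd were at 145 to 169 against 164 to 176 TPM and at 513 to 557 against 535 to 559 TPM, with log2 differences of -0.08 and -0.04. The summed TPM of the 4 genes was 1176 ± 47.3 in trex and 1226 ± 8.77 in wt (SD, n = 4).

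Complex III was represented by the core proteins Uqcrc1 and Uqcrc2, the Rieske iron-sulfur protein Uqcrfs1 and 5 small subunits. Uqcrfs1 was at 375, 323, 378 and 379 TPM in trex and 378, 400, 397 and 395 TPM in wt, a log2 difference of -0.11 (95% interval -0.25 to 0.02). Trex replicate 2 was the low library here, and it was also the lowest of all 8 for Uqcrc2, Uqcrh, Uqcrb and Uqcr11, trex replicate 1 being lowest for Uqcrc1, Uqcr10 and Uqcrq. Uqcrc1 and Uqcrc2 had log2 differences of -0.08 and -0.01, both with intervals within 0.5 of 0. The lowest difference was that of Uqcrq, a small subunit, at -0.23 (95% interval -0.52 to 0.06). It rested on trex replicate 1 at 97.4 TPM, while the other 3 trex libraries were at 144 to 147 TPM and the wt libraries at 145 to 166 TPM.

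Complex IV, cytochrome c oxidase, holds most of the isoform pairs. Cox4i1 and Cox4i2 encode alternative forms of subunit 4, of which Cox4i2 is known from lung and from cells at low oxygen. Cox4i2 was at 175, 20.5, 32.3 and 54.9 TPM in trex and at 14.2, 11.6, 10.7 and 15.1 TPM in wt. All trex libraries lay above all wt libraries, and trex replicate 1 was by far the highest. The means were 70.8 ± 71.2 and 12.9 ± 2.09 TPM (SD, n = 4 a group), and 35.9 TPM in trex without replicate 1. The log2 difference was 1.90 (SE 0.55), which missed the threshold at an adjusted p of 0.0662. The exact permutation p was 0.0286, the smallest possible, which again only restates that the groups did not overlap. Without trex replicate 1 the log2 difference was 1.31 and the adjusted p 0.0300. In that fit 6.02% of all genes were called higher and 4.69% lower, against 2 and 0 of the members. Without trex replicate 2 the log2 difference was 2.32 and the adjusted p 0.0197. Cox4i2 was called in only these 2 of the 20 alternatives, and the adjusted p ran up to 0.278.

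Cox4i1 was at 619, 516, 585 and 594 TPM in trex and 598, 574, 569.8 and 564 TPM in wt, a log2 difference of 0.00 (95% interval -0.14 to 0.14). Cox4i2 thus made up 22.1%, 3.82%, 5.23% and 8.46% of subunit 4 RNA in trex replicates 1 to 4 and 1.84% to 2.60% in wt, without overlap. The coding sequences are 70.3% identical over 482 aligned bases and share no 50-base word. Their most similar 60-base windows, bases 434 to 493 of Cox4i1 (chromosome 8) and 443 to 502 of Cox4i2 (chr2:152754173-152765037), are shown for the same reason as above, with the 48 identical bases in capitals.

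Cox4i1: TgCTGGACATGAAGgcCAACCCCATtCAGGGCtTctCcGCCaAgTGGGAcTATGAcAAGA

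Cox4i2: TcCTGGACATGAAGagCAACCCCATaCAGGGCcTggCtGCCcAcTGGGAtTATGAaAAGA

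These windows differ at 12 of 60 positions, and here too misassigned reads were not tested for. Pericyte and smooth muscle markers were tested beside Cox4i2, since pericytes also express it. Of the 6 tested genes of this list, 1 had a log2 difference below 0 and the median was 0.34. At an unadjusted limma p below 0.05 there were 2, against 29.0% of all tested genes. Rgs5 was at 48.7, 37.8, 32.2 and 30.3 TPM in trex and 18.9 to 27.3 TPM in wt. It was called higher (log2 difference 0.72, adjusted p = 0.0314). Pdgfrb was at 64.5 to 71.8 TPM in trex and 64.2 to 69.9 TPM in wt. Higd1b, which belongs to the low-oxygen list further on, was listed at 0 in every library. The summed TPM of the pericyte and smooth muscle list was 431 to 1033 in trex and 392 to 684 in wt. Its part in the Cox4i2 values was not tested.

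**Figure D3:**
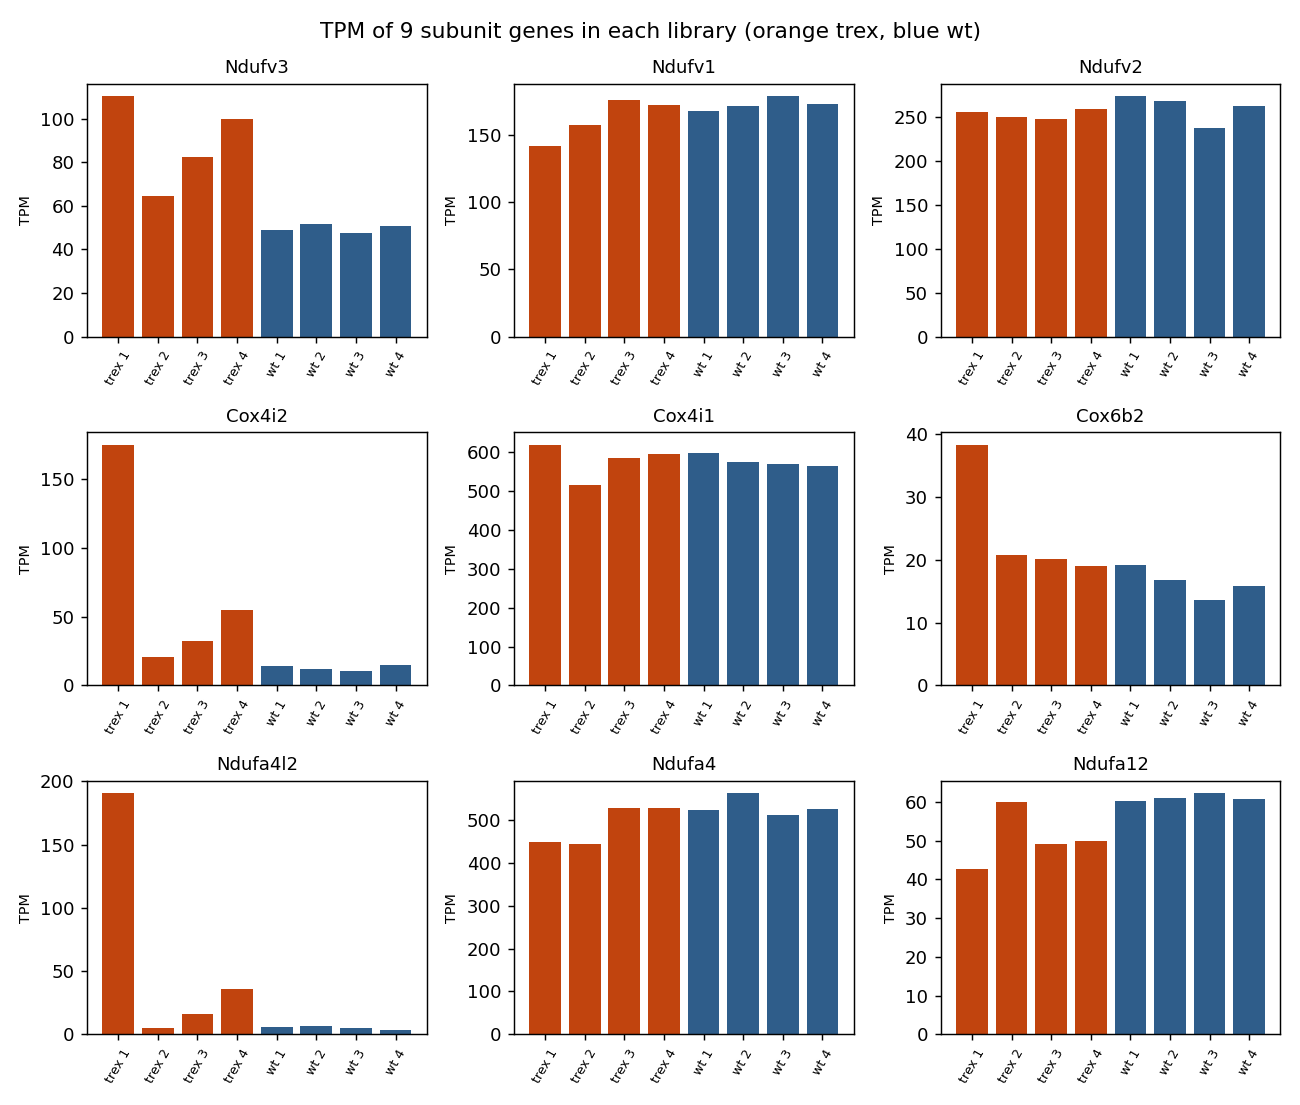
TPM of 9 subunit genes in each library (orange bars, trex replicates 1 to 4; blue bars, wt replicates 1 to 4; each axis starts at 0 and has its own scale). Ndufv3 and Cox4i2 are higher in all 4 trex libraries than in any wt library, and Ndufa4l2 in 3 of 4. Ndufv2, Cox4i1 and Ndufa4 overlap between groups. Trex replicate 1 is the highest library for Ndufv3, Cox4i2, Ndufa4l2 and Cox6b2, as it is for 38.2% of all tested genes.

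The other pairs of complex IV combine a widely expressed form with one known from muscle or testis. Cox6b2, the testis form of subunit 6b, was at 38.3, 20.7, 20.1 and 19.1 TPM in trex and 19.1, 16.7, 13.6 and 15.8 TPM in wt. Trex replicate 1 stood apart, trex replicates 2 and 3 lay just above the wt range, and trex replicate 4 lay at its upper end. The log2 difference was 0.51 (SE 0.21, adjusted p = 0.151). Its partner Cox6b1 was at 830 to 897 TPM in trex and 822 to 897 TPM in wt (log2 difference 0.00, 95% interval -0.12 to 0.11).

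Cox6a1 was at 569, 697, 669 and 705 TPM in trex and 769.7, 767, 749.8 and 743 TPM in wt, so the groups did not overlap. The log2 difference was -0.20 (SE 0.07, adjusted p = 0.106). Cox5a, which with Cox5b lies on the matrix side of the complex, was at 202, 214, 249 and 247 TPM in trex and 257, 263, 258 and 273 TPM in wt, again without overlap, with a log2 difference of -0.21 (adjusted p = 0.105). Cox5b was at 106 to 113 TPM in trex and 104 to 113 TPM in wt (log2 difference 0.00, 95% interval -0.11 to 0.10). Over all tested genes, groups failed to overlap in 8.95% with trex lower and in 12.9% with trex higher (21.8% in all); among the 82 members this was so for 5 (Ndufa12, Ndufa10, Cox6a1, Cox5a and Atp5h) and for 3 (Ndufv3, Cox4i2 and Atp5g2).

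Cox6a2, Cox7a1 and Cox8b are the forms of heart and skeletal muscle. Cox6a2 was at 0.510, 0.511, 7.49 and 7.26 TPM in trex and 0.271, 5.97, 2.77 and 13.4 TPM in wt. In recovered reads this is 2, 2, 27 and 29 in trex and 1, 23, 11 and 53 in wt. Both groups held low and high libraries, and the log2 difference of -0.40 had a 95% interval from -2.34 to 1.55. The summed TPM of 15 heart muscle markers was 248, 283, 2439 and 2925 in trex replicates 1 to 4 and 347, 1410, 736 and 3034 in wt replicates 1 to 4. The 3 libraries lowest in these markers were also the 3 lowest in Cox6a2, and the 3 highest were the same in both. None of the 15 markers was called. The part of heart muscle content in the Cox6a2 values was not tested.

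Cox7a1 was at 9.40, 3.57, 8.11 and 10.2 TPM in trex and 3.78, 5.27, 3.20 and 11.3 TPM in wt, a log2 difference of 0.41 (95% interval -0.46 to 1.28). Trex replicate 1, with the lowest marker sum, had the third highest Cox7a1 value. Among the other 7 libraries, the 3 with the least heart marker RNA had the 3 lowest Cox7a1 values and the 3 with the most had the 3 highest. Cox8b was listed at 0 in all 4 trex libraries and at 2.04, 2.45, 0.476 and 0.478 TPM in wt, which is 4, 5, 1 and 1 recovered reads. Without the filter on low values its adjusted p was 0.0863. The skeletal muscle marker Myh3, an embryonic myosin, was at 0.0572, 4.36, 3.58 and 2.90 TPM in trex and 21.5 to 26.6 TPM in wt. Cox7b2 had at most 2 recovered reads in a library and Cox8c was listed at 0 in all 8; both are known from testis.

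**Figure D4:**
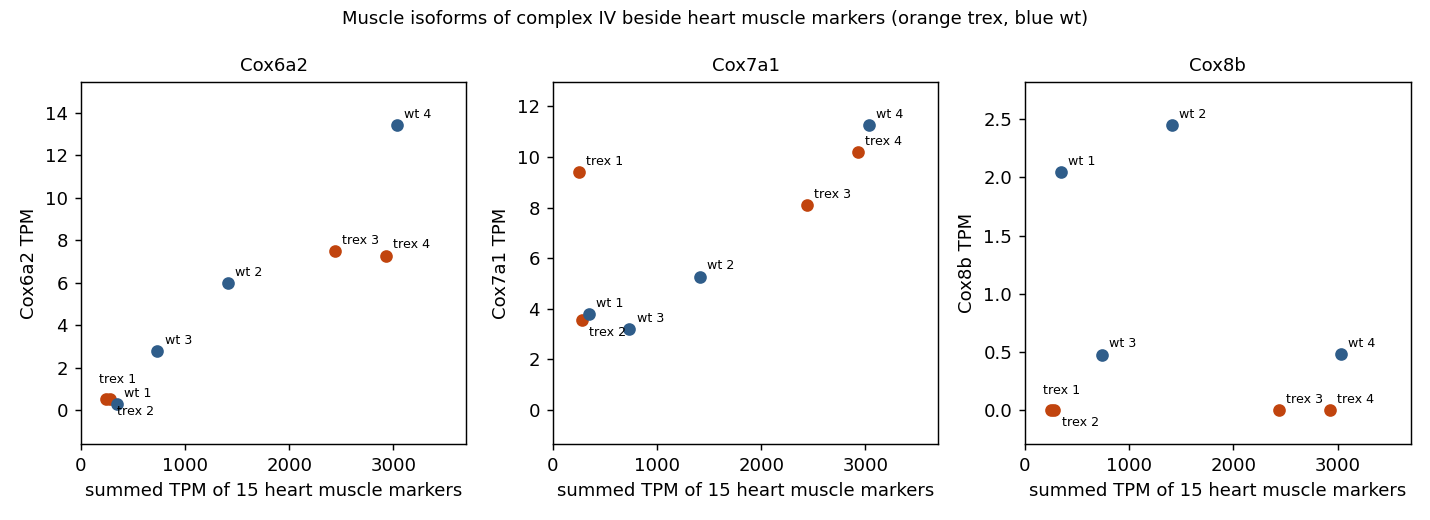
TPM of the muscle isoforms Cox6a2, Cox7a1 and Cox8b in each of the 8 libraries (vertical axes) against the summed TPM of 15 heart muscle markers in the same library (horizontal axes), orange for trex and blue for wt. Cox6a2 is at 0.271 to 0.511 TPM (1 or 2 recovered reads) in the 3 libraries with the lowest marker sums and at 13.4 TPM in the highest. Trex replicate 1 stands off the others for Cox7a1, and Cox8b is above 0 in the 4 wt libraries.

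The partner genes Cox7a2, Cox7b and Cox8a were among the most abundant members, at means of 522, 446 and 851 TPM, with log2 differences of -0.11, -0.06 and 0.04 and intervals within 0.5 of 0. Cox7a2l, a relative of subunit 7a known for a part in joining complexes III and IV, was at 176, 107, 136 and 139.9 TPM in trex and 127 to 153 TPM in wt. Its trex libraries reached both above and below the wt range, and the log2 difference was 0.01 (95% interval -0.29 to 0.32).

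Complex V is built from a catalytic head and central stalk, a peripheral stalk, a ring of c subunits and further membrane subunits. The catalytic pair Atp5a1 and Atp5b were the most abundant members. Atp5b was at 1249, 1453, 1546 and 1517 TPM in trex and 1419.9, 1458, 1489.7 and 1516 TPM in wt, with trex replicate 1 the lowest. The log2 differences of Atp5b and Atp5a1 were -0.03 (95% interval -0.20 to 0.14) and -0.04 (95% interval -0.16 to 0.09). The peripheral stalk gene Atp5h was at 122 to 131 TPM in trex and 135 to 139 TPM in wt, without overlap, with a log2 difference of -0.12 (adjusted p = 0.0966). Of the 50-base words in its transcripts, 19.9% occur in those of other genes. Atp5k, a membrane subunit, had the lowest difference of the complex, at -0.23 (SE 0.08, adjusted p = 0.0978), with 382, 442, 482 and 464 TPM in trex and 517, 542, 477 and 539 TPM in wt. Atp5s, which carries the symbol but is not a subunit of the finished synthase, was at 26.9, 15.5, 20.2 and 17.6 TPM in trex and 18.4, 16.2, 14.9 and 13.2 TPM in wt. The groups overlapped, with a log2 difference of 0.32 (95% interval -0.05 to 0.69).

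The c subunit is encoded by 3 genes that yield the same mature protein. Atp5g3 gave nearly all of the RNA, 97.6% to 98.3% of the summed TPM in trex and 98.3% to 98.8% in wt. It was at 465, 513, 635 and 622 TPM in trex and 621 to 644 TPM in wt, with replicates 1 and 2 low, a log2 difference of -0.19 (95% interval -0.41 to 0.04). Atp5g2 was at 7.76, 5.39, 7.54 and 5.49 TPM in trex and 5.38, 2.42, 3.27 and 4.01 TPM in wt. The groups did not overlap, though trex replicate 2 and wt replicate 1 nearly met, and the log2 difference was 0.68 (SE 0.21, adjusted p = 0.0739). It was called in none of the 20 alternatives, in which the adjusted p ran from 0.0528 to 0.363. Atp5g2 also has the highest share of non-unique sequence of any tested member, with 38.3% of its 50-base words found in other genes' transcripts, so its low level is uncertain. Atp5g1 was at 3.56 to 4.99 TPM in trex and 4.66 to 5.82 TPM in wt.

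Low values of single members need care for that reason. The 12 tested members with at least 10% of words shared had a median of 65.0 TPM, against 174 TPM for the other 70. The handling of reads that fit several genes is not stated in the sources used here. Length also enters: Atp5l (1.87 TPM) and Ndufab1 (14.3 TPM) have annotated exons summing to 6443 and 6883 bases, which lowers a value scaled by length. In recovered reads, which are not scaled by length, Atp5l had only 41 to 105 per library and Ndufab1 509 to 628. The part of length in these low values was not tested.

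Summed over all members, the nuclear-encoded subunits made up 20133, 19203, 20898 and 21137 TPM in trex replicates 1 to 4 and 20672 to 21362 TPM in wt. The means were 20343 ± 872 and 21038 ± 283 TPM (SD, n = 4), and the groups overlapped. As a share of the TPM outside the mitochondrial genome they were 2.07%, 2.07%, 2.20% and 2.21% in trex and 2.23% to 2.32% in wt, without overlap. The mitochondrially encoded subunit genes varied much more. Their summed TPM was 24123, 67101, 45595 and 42078 in trex and 63661, 73283, 67629 and 74952 in wt. Trex replicate 2 lay within the wt range and the other 3 below it.

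Of the 13 mitochondrially encoded subunit genes, mt-Nd3, mt-Nd4l, mt-Co2, mt-Co3, mt-Atp6 and mt-Atp8 were listed at 0 in every library, so the sums rest on the other 7. All 7 had a difference below 0, with a median of -0.69. Of these, 6 had an unadjusted limma p below 0.05, against 11.6% of all tested genes lower at that p. None was called after adjustment, against 3.77% of all tested genes called lower. As a share of nuclear and mitochondrial subunit RNA together, mitochondrial RNA was 54.5%, 77.7%, 68.6% and 66.6% in trex and 75.1% to 78.1% in wt. Libraries were made from poly-A RNA, which holds mitochondrial messages unevenly, and its part in these values was not tested.

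**Figure D5:**
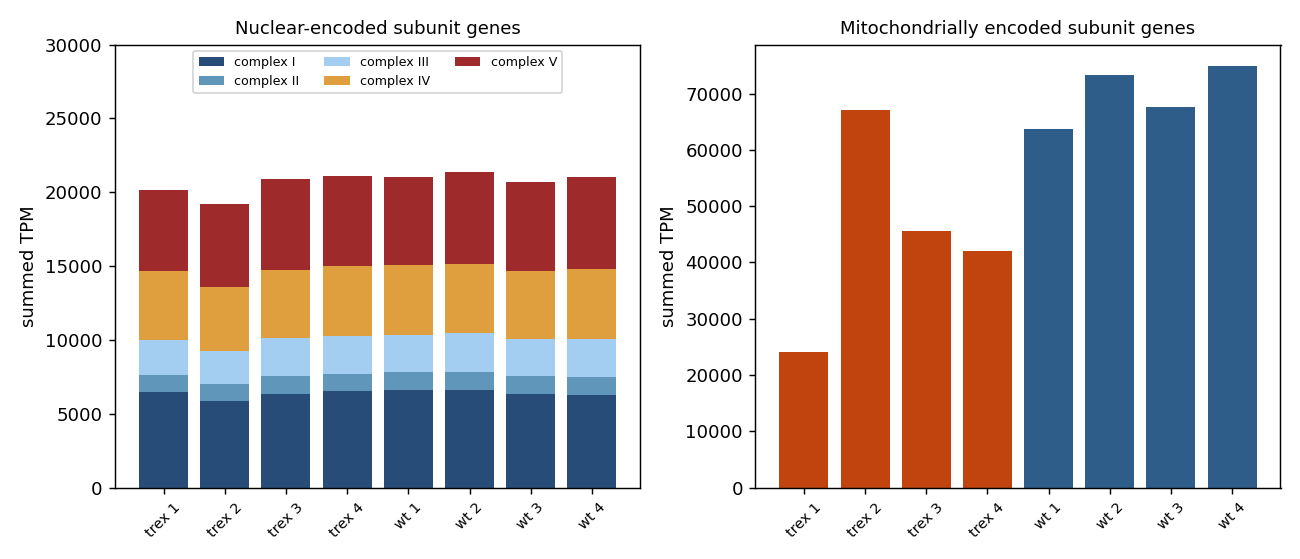
Left, summed TPM of nuclear-encoded subunit genes by complex (stacked colours) in each library; right, summed TPM of the mitochondrially encoded subunit genes (orange trex, blue wt). The nuclear sums lie between 19203 and 21362 TPM in all 8 libraries, and the mitochondrial sums run from 24123 to 67101 TPM in trex and from 63661 to 74952 TPM in wt.

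Genes that act around the chain were counted from lists of textbook members. Of 45 assembly factors, none was called higher and 3 were called lower: Sdhaf1, which helps to insert iron-sulfur clusters into complex II, fell from 37.3 ± 2.65 to 27.3 ± 4.18 TPM (SD, n = 4; log2 difference -0.45, limma adjusted p = 0.0447), Cox20, a complex IV assembly factor, from 76.0 ± 2.63 to 60.05 ± 3.27 TPM (-0.34, 0.0118), and Coa6, which takes part in copper delivery to complex IV, from 64.7 ± 2.29 to 53.9 ± 2.95 TPM (-0.26, 0.0261). The share called lower was 6.67%, against 3.77% of all tested genes. At an unadjusted p below 0.05 there were 13 of the 45 (28.9%), against 29.0% of all tested genes, and the median of the list was -0.05. Of 14 electron carrier genes (cytochrome c and c1, electron transfer flavoprotein and ubiquinone synthesis) limma called none, 3 had an unadjusted p below 0.05, and the median was -0.10. Cyc1, the cytochrome c1 of complex III that the choice by symbol leaves out, averaged 295 ± 34.6 TPM in trex and 326 ± 12.04 TPM in wt (-0.15, 0.258).

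Among 14 regulators of mitochondrial transcription and biogenesis limma called none and 1 had an unadjusted p below 0.05. Nrf1 and Gabpa, transcription factors known to act at promoters of respiratory chain genes, had log2 differences of -0.08 and -0.09, and Tfam, which acts on mitochondrial DNA, -0.03. Ppargc1b, a coactivator, averaged 3.83 ± 2.06 TPM in trex and 1.502 ± 0.446 TPM in wt (log2 difference 0.88, adjusted p = 0.0723). None of 13 citric acid cycle genes and none of 17 genes of the mitochondrial envelope and import machinery was called. At an unadjusted limma p below 0.05 there were 1 and 2, and the medians were -0.07 and 0.00. Such a p was found for 29.0% of all tested genes.

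Genes known to adjust mitochondria to low oxygen formed the last list. Of its 8 tested genes 6 were called higher and none lower, against 4.94% and 3.77% of all tested genes. The median of the list was 0.78. Pdk1, a kinase that holds pyruvate back from the citric acid cycle, rose 3.07-fold (54.1 ± 3.75 to 166 ± 78.6 TPM, adjusted p = 0.0200), Bnip3, a mitophagy receptor, 4.48-fold (adjusted p = 0.0171), and Lonp1, a matrix protease, 1.34-fold (adjusted p = 0.0340). Higd1a, Fam162a and Ldha also rose. The mean log2(TPM + 1) of the list was 8.54, 7.34, 7.83 and 8.13 in trex replicates 1 to 4 and 6.91 to 7.00 in wt. From highest to lowest, trex replicates stood in the order 1, 4, 3, 2 in this mean. Of the 5 members higher at an unadjusted p below 0.05, Ndufv3, Cox4i2 and Ndufa4l2 had this order and Cox6b2 and Atp5g2 did not. Over all tested members 12 of 82 (14.6%) had it, as did 14.6% of all tested genes. The 5 members were picked for being higher in trex. The share with this order among all genes picked in that way was not counted, so 3 of 5 has no matching background here. The part of the low-oxygen genes in these values was not tested. The list holds genes of a response that earlier results of these data had shown, so its direction is no independent support.

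The promoters were read for shared sequence. RefSeq promoters were at hand for 65 of the 82 tested members (70 promoters), those of Cox4i2, Ndufa4l2 and Cox4i1 not among them. In the 250 bases before the start, the NRF1 motif (GCGC, any 1 base, then TGCGC) occurred on either strand in 20.0% of member promoters and 3.74% of the 32851 promoters in the table, and the ETS-type motif CCGGAAG in 17.1% and 6.91%. CCAAT occurred in 41.4% and 33.8% and ACGTG in 18.6% and 16.6%. GCGTG occurred in 28 of 70 member promoters and 9250 of 32851 in the table. Either of ACGTG and GCGTG, the core letters of hypoxia response elements, occurred in 35 of 70 and 12679 of 32851, a larger share among members in both cases. The YY1 motif (AAGATGG followed directly by CGGC) occurred in 0 and 0.207%. Promoters of the table were not matched to those of members for base content, and overlapping promoters of the same gene were each counted. These shares describe letters in the promoters and were not set against the differences between trex and wt.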

How the data were processed

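Poly-A selected, strand-specific libraries from 4 trex and 4 wt samples were sequenced, per the labels. The authors deposited gene-level TPM, 1 column per sample, each summing to 1000000. The submitters' processing notes name CASAVA 1.8.2, STAR and mm10. The counting tool, the use of strand, the handling of reads that fit several genes, the annotation and the gene lengths used are not stated in these sources. Symbols, biotypes, coordinates and coding sequences came from GENCODE M21, on the same assembly as mm10; 55240 of 55421 identifiers matched. Upstream sequence came from the RefSeq promoter table (GRCm38.p6).

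Depth was recovered from TPM times exonic length: 98.7% to 98.9% of values up to 200 reads were whole within 0.001 read. These reads served for depth and for 1 alternative (limma voom).

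Groups were compared with limma 3.58.1 (R 4.3.3; lmFit and a trended eBayes) on log2(TPM + 1). The two-sided test used all 8 samples, no term beside genotype, genes with a mean of at least 1 TPM, and Benjamini-Hochberg adjustment over 15717 genes. The log2(TPM + 1) scale understates changes of low genes. Folds are ratios of mean TPM. The scripts were tested on simulated data. No set of genes was tested as a set.

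The members and gene lists were chosen with earlier results of these data known. Genes were named by rule: called members, isoform pairs, all Sdh genes, catalytic and c-ring genes, and the extremes of level and difference in each complex. Ndufa6, Ndufa7, Ndufa10, Ndufab1, Ndufb6, Ndufs8, Ndufv2, Cox5a, Cox5b, Atp5h, Atp5s, Uqcr10 and Uqcr11 were named after their values were seen. So were the neighbouring or shared-sequence genes. The order of the replicate numbers in the titles (wt 5 to 8) is that of wt replicates 1 to 4. Deviations of same-numbered samples correlated at 0.16 and 0.25 for replicates 1 and 4 and at -0.02 and -0.004 for replicates 2 and 3. Trex replicates 1 and 4 matched the same-numbered wt sample best, and trex replicates 2 and 3 did not. The samples were not paired. The tested member missing from the plot of single genes is not reported here; counts of members include it. Alternatives are given in the closing section.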

Additional observations from a re-analysis of the deposited data

Results flagged for a closer look

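With 4 samples a group, a highest or lowest sample was marked when its gap to the nearest other made up more than 0.829 of the group's range (Dixon's test at the 95% level). Of 134 sets of values 14 were marked, and chance marks about 1 in 20.

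Trex replicate 1 was marked high for Ndufa4l2 (191 TPM, the other 3 at 4.76 to 35.8), for Cox6b2 (38.3 TPM, the others at 19.1 to 20.7) and for the share of Cox6b2 in subunit 6b RNA (4.39%, the others at 2.19% to 2.34%), and low for Uqcrq (97.4 TPM, the others at 144 to 147). Trex replicate 2 was marked low for Sdha (253 TPM, the others at 275 to 277), Sdhc (145 TPM, the others at 165 to 169) and Uqcrfs1 (323 TPM, the others at 375 to 379). It was also marked low for the mean log2(TPM + 1) of all tested members (6.93, the others at 7.13 to 7.16) and of complex IV members (6.58, the others at 6.96 to 7.04).

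Among wt libraries, Cox8a was marked low in replicate 1 (782 TPM, the others at 855 to 862). The marks for Cox7b2 rest on at most 2 reads: trex replicate 3 at 0.696 TPM and a share of 0.156% of subunit 7b RNA with the other trex libraries at 0, and wt replicate 1 at 0 TPM and 0% with the other wt libraries at 0.316 to 0.325 TPM.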

How the results depend on the processing

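The analysis was repeated with pseudocounts of 0.1 and 5, no filter, a filter at a mean of 5 TPM, quantile normalization, median-of-ratios rescaling, TPM without mitochondrial, globin and sex chromosome genes, limma without a trend and with robust estimation, a replicate block, sex read from Y-linked genes as a covariate, voom on recovered reads, and each sample left out. The median log2 difference of members stayed below 0 in all 20 alternatives. It ran from -0.11 (TPM without mitochondrial, globin and sex chromosome genes) to -0.03 (without trex replicate 2). The median over all tested genes was 0.00 and 0.05 in those 2 fits. The number of members called higher was 1 in all alternatives except sex as a covariate (0) and the samples left out (0 to 3); the number called lower was 0 except without trex replicate 2 (0 to 1 over the samples left out). Over all genes the count of calls was 1369 and ran from 39 with sex as a covariate, through 199 without wt replicate 2, to 2926 without trex replicate 2, so the count depends on which libraries enter. Y-linked RNA was high in wt replicates 2 and 3 (162 and 158 TPM summed) and at most 0.0662 TPM in the other 6 libraries. With quantile normalization 633 genes were called higher and 739 lower, against 777 and 592. With the replicate block, 1 member was called higher, 0 lower, and 687 genes in all; the correlations of same-numbered samples' deviations were 0.16, -0.02, 0.00 and 0.25, so the numbers were not taken as pairs. Without the filter 694 genes were called, without a trend 1041. Of the 35 named members tested, 12 changed sign in at least 1 alternative, in each case without being called. The cause of these changes was not tested. Depth limits Cox8b, Cox7b2 and Cox8c, with at most 5 reads in a library. It also limits Cox6a2, with 2, 2 and 1 reads in trex replicates 1 and 2 and wt replicate 1.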
